A study of Mus musculus with 12 samples.

Results

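Ion pumps that hydrolyse ATP set the sodium, potassium, calcium and proton gradients of neurons and glia. The genes examined here were those whose symbol in the deposited peak annotation begins with Atp1a, Atp1b, Atp2a, Atp2b, Atp2c, Atp6ap or Atp6v followed by a digit. They were 30 of 11356 genes with a peak in any list, and they held 22 of 766 peaks in excitatory neurons, 51 of 3611 peaks in forebrain replicates 5 to 7 (reps 5-7), 1800 of 246180 peaks in forebrain replicates 1 to 4 (reps 1-4) and 0 of 10 peaks in the immunoglobulin control (IgG), which allows a share of up to 30% there. The rule used names only, no measured value. RefSeq (GRCm38.p6) lists 43 protein-coding mouse genes of this pattern, and 13 of them had no peak in any list: Atp1a4, Atp1b4, Atp2a1, Atp2a3, Atp2c2, Atp6ap1l, Atp6v0d2, Atp6v1b1, Atp6v1c2, Atp6v1e2, Atp6v1fnb, Atp6v1g1 and Atp6v1g3.

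The study mapped small RNAs together with their targets in Argonaute (Ago) of adult C57BL/6 mouse forebrain by CIMERA-seq, in which ultraviolet cross-linking and ligation join the small RNA and its target into 1 chimeric read. Excitatory neurons were sampled in 3 libraries by anti-myc precipitation of a tagged Ago2 (tAgo2), switched on through a Camk2a-Cre/ERT2 transgene crossed to a ROSA26 CAG-GFP/Eif2c2 allele with 2 mg tamoxifen a day for 5 days. Whole forebrain was sampled by anti-Ago2 in 3 libraries (reps 5-7) and 4 libraries (reps 1-4), and 2 libraries used control IgG. The labels give the same mouse line, tamoxifen course, wait of 14 to 21 days and age of 10 to 12 weeks for all groups, and do not say if tagged Ago2 was also present in the mice used for anti-Ago2 and IgG. In the calling summaries the excitatory and reps 5-7 libraries bear the same 3 library numbers with different end letters, and no source used here says what the numbers mean. The libraries of a group were pooled before peaks were called, so each list is 1 observation with no spread between replicates, and the intervals below (Wilson, 95%) cover counting error only. A peak is 1 small RNA at 1 stretch of target RNA, and its deposited score is the authors' whole number, at least 3, whose definition is not stated and which is not scaled to library size.

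Of 6 markers of excitatory neurons, only Camk2a had peaks in the excitatory list (14), and Slc17a7, the vesicular glutamate transporter of cortical excitatory neurons, had 0. The 6 astrocyte markers had 0 peaks in the excitatory list, 39 in reps 5-7 and 954 in reps 1-4, and the 6 inhibitory neuron markers had 0, 4 and 96. The 6 oligodendrocyte lineage markers had 4 peaks in the excitatory list, 13 in reps 5-7 and 315 in reps 1-4. In such bulk lists, fewer cells of a type and fewer bound targets per cell cannot be told apart.

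The sodium pump is an alpha subunit, which binds sodium, potassium and ATP, with a beta subunit that carries it to the membrane. Calcium leaves the cytosol through plasma membrane pumps (PMCA, Atp2b genes), enters the endoplasmic reticulum through SERCA (Atp2a genes) and enters the Golgi through SPCA (Atp2c genes). The vacuolar proton pump (V-ATPase) acidifies lysosomes and fills synaptic vesicles with transmitter by its proton gradient; its V1 sector splits ATP and its V0 sector carries protons across the membrane. MicroRNAs guide Ago to targets mainly by their seed, bases 2 to 8, and are best known for acting in 3′ untranslated regions (UTRs).

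Some of the mature microRNAs behind the peaks described below are given from RefSeq (GRCm38.p6), 5′ to 3′, with the seed in capitals. miR-124-3p is missing because the RefSeq entries used here held no mature sequence for it. Others, such as miR-138-5p and let-7e, g and i, are not shown. The microRNAs at the top held high-scoring peaks, and the let-7 and miR-29 groups are shown because their members share a seed and stacked at the same places.
miR-9-5p: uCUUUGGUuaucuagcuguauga
miR-128-3p: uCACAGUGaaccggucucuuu
miR-26a-5p: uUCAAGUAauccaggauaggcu
miR-218-5p: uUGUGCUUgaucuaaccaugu
miR-132-3p: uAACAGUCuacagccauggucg
miR-29a-3p: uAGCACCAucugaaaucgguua
miR-29b-3p: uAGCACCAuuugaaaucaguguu
miR-29c-3p: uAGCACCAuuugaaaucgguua
let-7a-5p: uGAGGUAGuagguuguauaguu
let-7b-5p: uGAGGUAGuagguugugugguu
let-7c-5p: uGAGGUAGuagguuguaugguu
let-7d-5p: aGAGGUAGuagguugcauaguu
let-7f-5p: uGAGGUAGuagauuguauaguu
In reps 1-4 the pump genes held peaks of 137 small RNA names. miR-124-3p, an abundant neuronal microRNA, had 414 of the 1800 pump peaks (23.0%, interval 21.1 to 25.0), against 29.3% of all other peaks, and it had the most peaks, alone or tied, on 25 of the 30 genes. In the coding sequence (CDS) alone its share was 17.8% on pump genes (interval 15.4 to 20.4) and 19.7% elsewhere. By seed, the 8 let-7 names followed with 241 peaks on 22 genes, the 3 miR-29 names with 157 peaks on 24 genes, miR-9-5p with 131 on 24 genes, the 2 miR-125 names with 105 on 20 genes and miR-128-3p with 104 on 21 genes.

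The peaks were spread unevenly over the pump families. In reps 1-4 the 4 PMCA genes held 638 peaks, the 18 V-ATPase genes 394, the 3 sodium pump beta genes 231, Atp2a2 139 and Atp2c1 42. A gene held between 2 and 290 peaks, with a median of 26.5, against a median of 5 over the other genes with a peak. These are counts of peaks, not scaled to RNA length or abundance. The 14 genes that had no peak in excitatory neurons or reps 5-7 and were not among those with most peaks in reps 1-4 held 2 to 42 peaks each, with a median of 14.5.

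**Figure D1:**
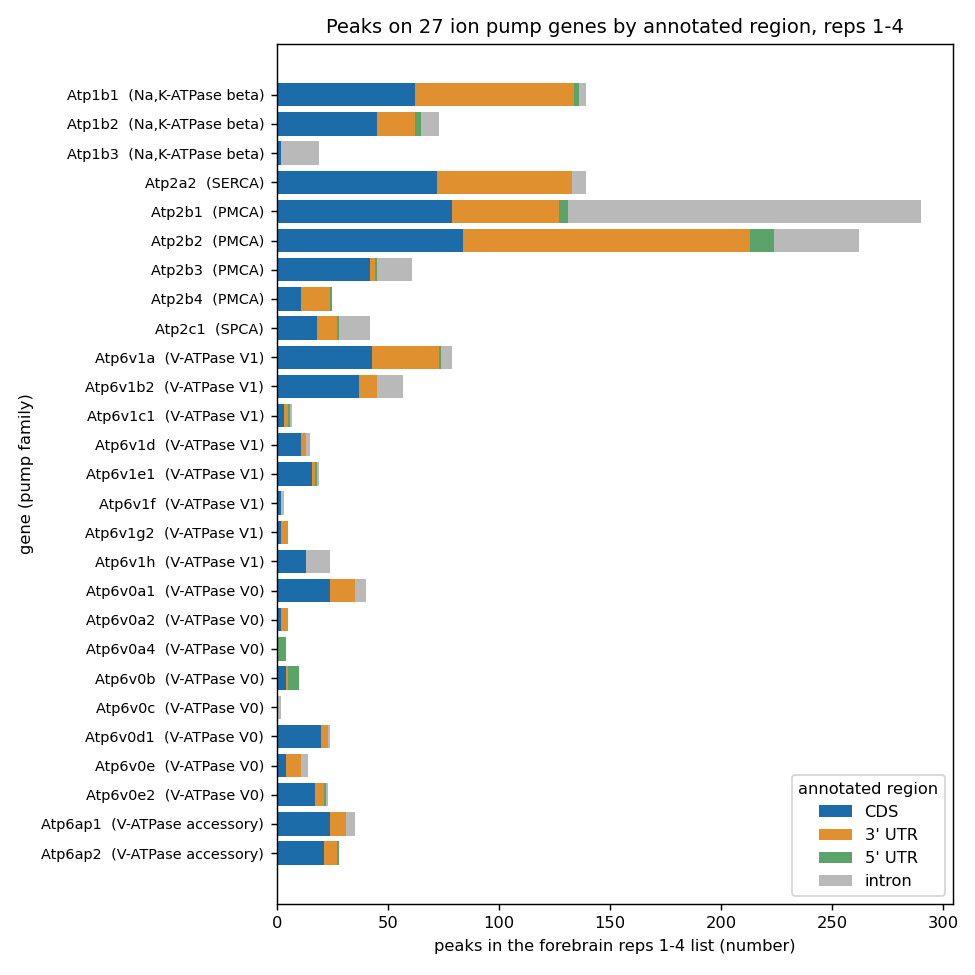
Number of peaks in the reps 1-4 list (x axis) on each of 27 pump genes (y axis, with family), split by annotated region. Atp2b1 (290 peaks, 159 of them intronic) and Atp2b2 (262 peaks, 129 of them in the 3′ UTR) have the longest bars, and CDS is the largest region on Atp6v1b2 (37 of 57).

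A larger share of pump peaks than of other peaks was annotated to coding sequence. In the excitatory list 20 of 22 pump peaks were in the CDS (90.9%, interval 72.2 to 97.5), against 44.5% of all other peaks (41.0 to 48.1). In reps 5-7 the shares were 58.8% (45.2 to 71.2) on pump genes and 30.8% (29.3 to 32.4) elsewhere, and in reps 1-4 they were 50.4% (48.1 to 52.7) and 22.4% (22.2 to 22.6). All other peaks include rRNA and other RNAs with no CDS. Set against the other peaks on genes with a CDS or UTR peak, the shares were 90.9% against 58.5% (54.4 to 62.5) in the excitatory list, 58.8% against 44.9% (42.9 to 46.8) in reps 5-7, where the intervals overlapped, and 50.4% against 25.3% (25.1 to 25.5) in reps 1-4. Among CDS and UTR peaks alone, the CDS share was 90.9% (72.2 to 97.5) against 59.1% (55.0 to 63.1) in the excitatory list, 63.8% (49.5 to 76.0) against 47.0% (45.0 to 49.0) in reps 5-7 and 62.6% (60.1 to 65.0) against 53.4% (53.1 to 53.7) in reps 1-4, so the gap in reps 1-4 was smaller on this scale. Introns held 19.5% of pump peaks (17.7 to 21.4) and 47.8% of other peaks in reps 1-4, and 3′ UTRs held 27.9% (25.9 to 30.1) and 18.6%. This higher 3′ UTR share is over all peaks, introns included. Among CDS and UTR peaks of reps 1-4, the higher CDS share leaves a lower UTR share on pump genes. In the other lists 3′ UTRs held 9.09% of pump peaks (2.53 to 27.8) against 28.8% in excitatory neurons, and 31.4% (20.3 to 45.0) against 33.6% in reps 5-7. No test was run on these shares, since each list is 1 pooled observation.

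**Figure D2:**
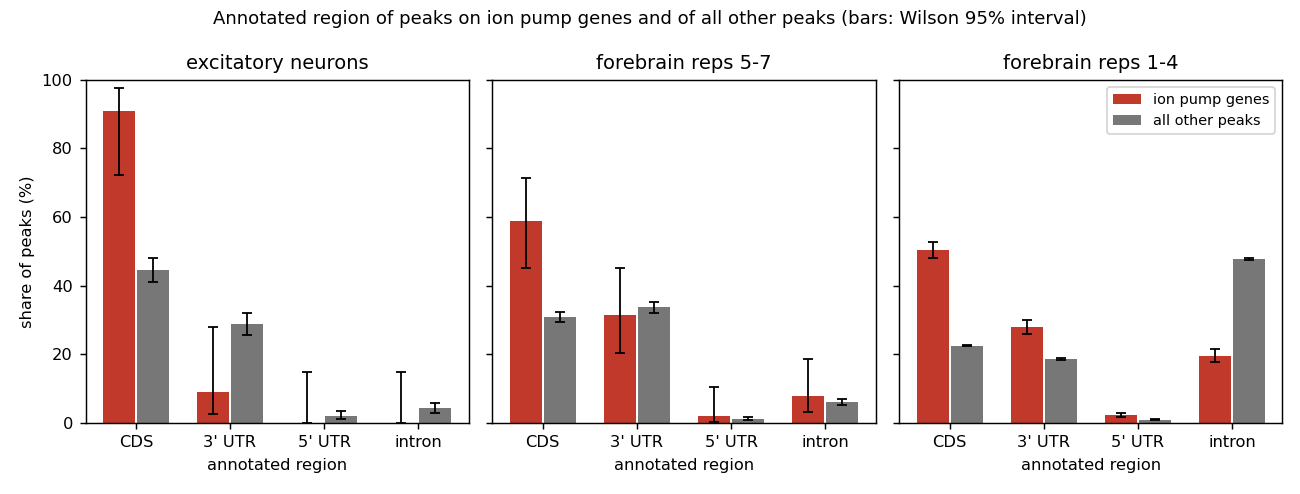
Share of peaks (y axis, %) in each annotated region, for pump genes (red) and all other peaks (grey) in the excitatory, reps 5-7 and reps 1-4 lists, with Wilson 95% intervals as bars. The red CDS bar stands above the grey one in all 3 panels, at 90.9%, 58.8% and 50.4% against 44.5%, 30.8% and 22.4%.

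The region differed between families. In reps 1-4 the CDS held 61.7% of peaks on the V-ATPase genes, but 47.2% on the sodium pump beta genes and 33.9% on the PMCA genes. PMCA peaks were split almost evenly, with 216 in CDS, 192 in 3′ UTRs and 213 in introns.

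Per gene, no pump gene passed the test in any comparison of 2 lists. Each gene's share of a list's peaks was compared by Fisher's exact test, two-sided, over all genes with at least 10 peaks in both lists together, and p-values were adjusted by Benjamini-Hochberg and called under 0.05. Between excitatory neurons and reps 1-4, 0 of 24 pump genes were called, against 11 of 4103 genes (0.268%). The smallest adjusted p was that of Atp2b3 (Fisher's exact test, 0.255; odds ratio 15.9), and 6 of 24 pump genes had an unadjusted p under 0.05, against 123 of all 4103 genes (3%). Between excitatory neurons and reps 5-7, the only pump gene with enough peaks, Atp2b2, was not called (5 and 9 peaks, odds ratio 2.63, Fisher's exact test, adjusted p = 0.201), against 7 of 32 genes (21.9%). Between reps 5-7 and reps 1-4, 0 of 24 pump genes were called, against 55 of 4132 genes (1.33%). At an unadjusted p under 0.05 there were 7 of 24 pump genes and 268 of all 4132 genes (6.49%). With CDS and UTR peaks alone, 1 of 23 pump genes had an unadjusted p under 0.05 in this comparison, and 4 of 23 in excitatory neurons against reps 1-4. All genes under that p were not counted in this setting, so these counts have no share to be set against. In that setting 0 pump genes were called in either, against 0% of 3127 and 0.129% of 3099 genes. The median odds ratio over the tested pump genes was 0 in excitatory neurons against reps 1-4, as over the other genes, and 1.59 in reps 5-7 against reps 1-4, where the other genes had 0. The ratio is 0 for every gene with no peak in the smaller list. Genes with a peak in reps 1-4 held a median of 26.5 there if pump genes and 5 if not. The medians therefore cannot separate a shift between lists from the number of peaks per gene. The counts at an unadjusted p were not matched for peaks per gene and cannot separate them either. Among the 6 pump genes in excitatory neurons against reps 1-4, Atp6v0e and Atp6v1d had 1 excitatory peak each.

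With overlapping peaks merged into sites, some pump genes did pass. Atp2b2 was then called higher in excitatory neurons than in reps 1-4 (5 and 120 sites, odds ratio 11.9, Fisher's exact test, adjusted p = 0.0392), 1 of 23 pump genes, against 0.302% of all genes. Between reps 5-7 and reps 1-4, 3 of 23 were called, against 2.33% of all genes, all higher in reps 5-7. They included Atp2b2 (8 and 120 sites, Fisher's exact test, adjusted p = 0.0246) and Atp1b1 (5 and 42 sites, adjusted p = 0.0262). Between excitatory neurons and reps 5-7, 0 of 1 was called, against 4.76% of all genes. Merging left Atp2b2 at 5 in excitatory neurons but took it from 262 to 120 in reps 1-4, which by itself raises the odds ratio. These tests compare pooled lists of very unequal size, not conditions.

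**Figure D3:**
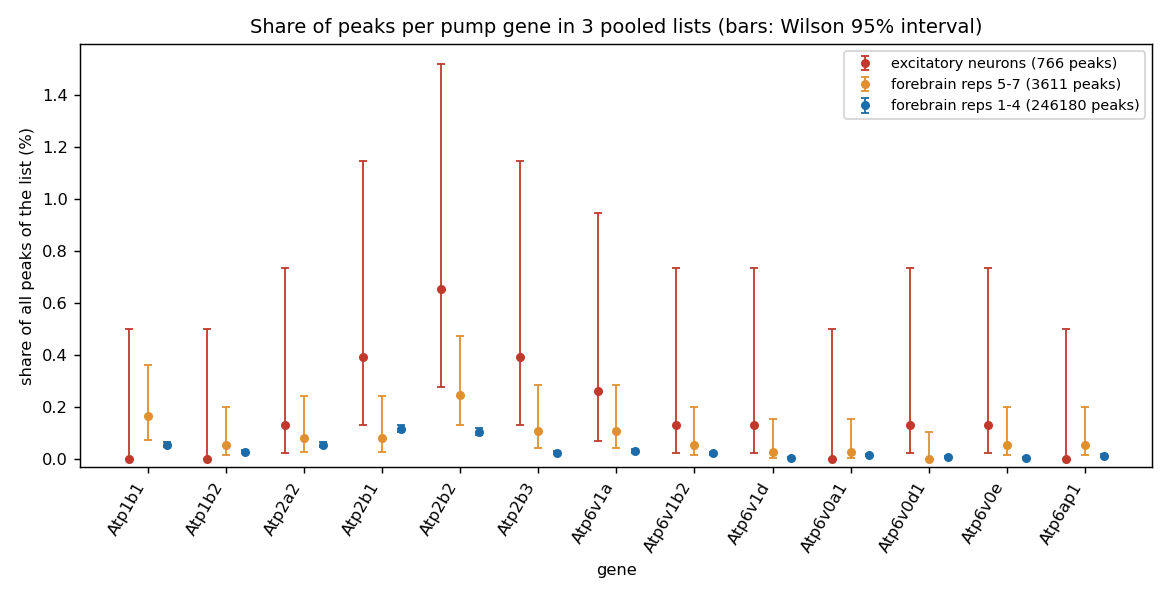
Share of all peaks of a list (y axis, %) on each of 13 pump genes (x axis) in excitatory neurons (red), reps 5-7 (orange) and reps 1-4 (blue), with Wilson 95% intervals as bars. Atp2b2 has the highest share in the excitatory list (0.653%) and in reps 5-7 (0.249%), and the intervals of the excitatory list are the widest, since it holds 766 peaks.

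All pump genes together took 2.87% of peaks in excitatory neurons (1.90 to 4.31), 1.41% in reps 5-7 (1.08 to 1.85) and 0.731% in reps 1-4 (0.698 to 0.766). These 3 intervals did not overlap. As a share of summed scores, rRNA peaks included, pump genes took 1.34%, 0.874% and 0.835%. The value of reps 1-4 lay inside the interval of reps 5-7 (0.777 to 0.982). That interval treats each of 31821 score units as an observation. The pump score came from only 51 peaks, so the interval is too narrow. With rRNA peaks left out, the shares of peaks were 3.25%, 1.76% and 0.747%. Without intron peaks, which were 47.8% of other peaks in reps 1-4, the shares were 2.99%, 1.39% and 1.12%, and that of reps 1-4 then lay inside the interval of reps 5-7 (1.04 to 1.84). Excitatory peaks fell on 11 pump genes and reps 5-7 peaks on 15, and 10 genes had both.

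Most pump peaks of the smaller lists had a match in reps 1-4. Counting any same-strand overlap with a peak of the same small RNA, a match was found for 21 of 22 excitatory pump peaks (95.5%, 78.2 to 99.2) and 46 of 51 reps 5-7 pump peaks (90.2%, 79.0 to 95.7), against 93.0% and 87.5% of all other peaks of those lists. With a reciprocal overlap of 50%, a match was left for 17 of 22 (77.3%) and 27 of 51 (52.9%). The matched peaks, the highest-scoring where several overlapped, had median scores of 49 and 84.5 in reps 1-4, where the median over all pump peaks was 5. Of the 22 excitatory pump peaks, 11 matched 1 of the 3 highest-scoring peaks of their gene in reps 1-4, and 9, on 7 genes, were present in all 3 lists. The matched scores, the 11 and the 9 were not set against other peaks, so they cannot be called particular to pump genes. By any overlap, 10 of the 22 (45.5%, 26.9 to 65.3) had a match in reps 5-7. Of all other excitatory peaks 55.8% (52.2 to 59.3) had a match there, and the intervals overlapped.

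Of the sodium pump beta subunits, Atp1b1, the widespread isoform, had 0, 6 and 139 peaks in excitatory neurons, reps 5-7 and reps 1-4, and its 3′ UTR held more of them in reps 1-4 (72) than its CDS (62). All 6 peaks in reps 5-7 were in the 3′ UTR. The highest scores lay near both ends of that 1166-base segment: miR-26a-5p at bases 62 to 74 (6 in reps 5-7 and 147 in reps 1-4), miR-218-5p across the start of the UTR to base 13 (7 and 127) and miR-9-5p at bases 957 to 971 (8 and 124). The miR-29 names overlapped upstream of the miR-9-5p peak, with miR-29b-3p at bases 848 to 859 (72 in reps 1-4) and miR-29a-3p at bases 845 to 860 (59 in reps 1-4). A CDS stretch at chr1:164453503-164453593 held 16 peaks of 15 small RNAs, the most names at any merged site of these genes, with a top score of 27.

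Atp1b2, an isoform known as a glial adhesion molecule, had 0, 2 and 73 peaks, 45 of the last in the CDS. A count of 0 among 766 peaks allows a share of up to 0.392%, and its share in reps 5-7 was 0.0554%, which 766 peaks cannot resolve. The astrocyte markers had 0, 39 and 954 peaks in the same lists, the inhibitory neuron markers 0, 4 and 96 and Slc17a7 0, 1 and 31, and their part in the values of this gene was not tested. Its top peak was miR-124-3p at chr11:69602811-69602815 (4 in reps 5-7 and 104 in reps 1-4). A stack of 14 small RNAs at chr11:69603526-69603553 included all 8 let-7 names. Atp1b3 had 0, 0 and 19 peaks, 17 of them in introns.

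The SERCA gene with peaks was Atp2a2, which refills the calcium store of neurons, with 1 peak in excitatory neurons, 3 in reps 5-7 and 139 in reps 1-4. The CDS and the 3′ UTR held 72 and 61 of the last. The same miR-124-3p peak led all lists, at chr5:122460839-122460853 in reps 1-4, with scores of 4 in excitatory neurons, 11 in reps 5-7 and 98 in reps 1-4. The Golgi pump Atp2c1 had 42 peaks, all in reps 1-4, with a highest score of 28 for miR-124-3p in the 3′ UTR.

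Among the PMCA genes, Atp2b1 had 3 peaks in excitatory neurons, 3 in reps 5-7 and 290 in reps 1-4. In the CDS, miR-128-3p at chr10:99003207-99003212 scored 4, 3 and 235 in the 3 lists, and miR-124-3p at chr10:99001335-99001346 scored 4 in excitatory neurons and 216 in reps 1-4. The third excitatory peak was miR-29b-3p in the 3′ UTR (3, with 33 in reps 1-4), where miR-29a-3p scored 48 at the same place in reps 1-4. Of its 159 intron peaks, 124 lay in 1 intron of 53.3 kb (chr10:98915372-98968694), 58 of them of miR-124-3p, with a median score of 4 and a highest of 19.

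Atp2b2, the PMCA isoform of cerebellar neurons and hair cells that forebrain also expresses, had the most pump peaks in both smaller lists, with 5 in excitatory neurons, 9 in reps 5-7 and 262 in reps 1-4. Its share was 0.653%, 0.249% and 0.106% (excitatory neurons against reps 1-4, odds ratio 6.17, Fisher's exact test, adjusted p = 0.295). All 5 excitatory peaks were in the CDS, and the 4 with a match in reps 1-4 had scores there of 119 (miR-124-3p, chr6:113773369-113773380), 99 (miR-9-5p), 30 (miR-124-3p) and 17 (miR-128-3p). The fifth, miR-9-5p at chr6:113842300-113842302 with a score of 7, was the 1 excitatory pump peak without a match. It lay between a pair of miR-9-5p peaks of reps 1-4 at chr6:113842296-113842299 (211) and chr6:113842310-113842328 (112), which it did not overlap. The 3′ UTR held 129 of the 262 peaks in reps 1-4, led by miR-124-3p at bases 748 to 758 (15 in reps 5-7 and 103 in reps 1-4) and miR-26a-5p at bases 916 to 927 (3 and 89). All 8 let-7 names overlapped in another 3′ UTR stretch, at chr6:113748557-113748632, with a top score of 19. Its introns held 38 peaks over a gene of 299 kb, or 1.27 per 10 kb, against 14.3 per 10 kb of the gene for Atp2b1.

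Atp2b3, a PMCA isoform known from neurons, had 3 peaks in excitatory neurons, 4 in reps 5-7 and 61 in reps 1-4, and its share was 0.392%, 0.111% and 0.0248%. The excitatory peaks were let-7b-5p and let-7c-5p at 1 CDS site (8 and 3, with 61 and 36 in reps 1-4) and miR-138-5p (3, with 6). The highest score of any pump peak was its miR-124-3p peak at chrX:73537098-73537113, with 8 in reps 5-7 and 287 in reps 1-4. Atp2b4 had 25 peaks in reps 1-4 alone, none in introns, and no score above 16.

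The V-ATPase genes held 6 peaks in excitatory neurons, 12 in reps 5-7 and 394 in reps 1-4. Of the V1 sector, Atp6v1a, the subunit that binds the ATP to be split, had 2, 4 and 79 peaks. Its miR-124-3p peak at the end of the coding sequence, chr16:44087430-44087440, scored 6, 10 and 249, and was annotated as CDS in excitatory neurons and reps 1-4 but as 3′ UTR in reps 5-7, where it reached past the annotated end of the CDS. A let-7 site in its CDS, chr16:44101815-44101862, held 7 let-7 names, with let-7c-5p at 99 and let-7a-5p at 90 in reps 1-4. In excitatory neurons let-7a-5p scored 3 there, and in reps 5-7 let-7c-5p scored 15 and let-7a-5p 5.

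Atp6v1b2, the brain isoform of the other nucleotide-binding subunit, had 1, 2 and 57 peaks. Its miR-29a-3p peak in the CDS, chr8:69102206-69102216, scored 9 in excitatory neurons, 4 in reps 5-7 and 80 in reps 1-4, and 9 was the highest score of an excitatory pump peak. Atp6v1d, part of the rotating stalk, had 1, 1 and 15 peaks, with miR-9-5p at 7 in excitatory neurons (42 in reps 1-4) and miR-124-3p at 7 in reps 5-7 (65 in reps 1-4).

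Of the V0 sector, Atp6v0a1, the a subunit of synaptic vesicles, had 0, 1 and 40 peaks, led by miR-124-3p at chr11:101034039-101034047 (3 in reps 5-7 and 137 in reps 1-4). Atp6v0e had 1, 2 and 14 peaks; its excitatory peak was miR-124-3p in the 3′ UTR (3), which had 3 in reps 5-7 and 29 in reps 1-4. Atp6v0d1 had 1, 0 and 24 peaks, and its excitatory peak, miR-138-5p with a score of 5, had only 3 in reps 1-4, the lowest score a peak can have. The accessory protein gene Atp6ap1 had 0, 2 and 35 peaks.

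A minority of the sites on pump genes were shared by several small RNAs. Overlapping peaks of reps 1-4 merged into 954 sites, of which 665 had a single small RNA, 289 had 2 or more, 77 at least 5 and 17 at least 10. Names with the same seed, such as the let-7 names, count separately here. Merging chains overlaps, so the peaks of a site need not all overlap each other. Among CDS and UTR sites, 10.7% of 680 on pump genes and 3.95% of 65412 on other genes held 5 or more peaks. Scores of CDS and UTR peaks had a median of 5 on both pump genes and other genes, with upper quartiles of 10 and 8, and 19 of 1449 pump peaks (1.31%) and 573 of 102514 other peaks (0.559%) scored 100 or more. The part of scores in the stacking was not tested.

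Part of the intronic peaks sat at splice junctions. In reps 1-4, 92 of 351 intronic pump peaks (26.2%, 21.9 to 31.1) began at the last base of their intron in genome order, against 3916 of 116762 intronic peaks of other genes (3.35%, 3.25 to 3.46). These shares depend on how many intronic peaks there were, and introns held 19.5% of pump peaks but 47.8% of other peaks. Beside CDS peaks the contrast is much smaller, with 92 junction peaks to 907 CDS peaks on pump genes and 3916 to 54757 elsewhere. In reps 5-7 all 4 intronic pump peaks did, against 50 of 214 elsewhere (23.4%). Of the 92, 84 were longer than 1 base and ran on past the intron, so that only their first base was intronic. For 70 of the 92, a CDS peak of the same small RNA ended within 15 bases of the other edge of that intron, and in 40 of these pairs both peaks had the same score. miR-132-3p on Atp2a2 had 54 on both sides, miR-128-3p on Atp6ap1 19 on both and miR-124-3p on Atp1b2 50 at the intron edge and 49 in the CDS.

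The top pump peak belongs to such a pair: the 287 of miR-124-3p on Atp2b3 faced a peak of 275 at chrX:73538076-73538080, across an intron of 949 bases. The 92 peaks came from 18 genes, with 12 on Atp2b3 and 11 on Atp6v1b2, but 2 on Atp2b1, whose intron peaks otherwise lay inside. Such pairs count as 2 peaks, 1 of them intronic by annotation, and the intron shares above include them. With the junction peaks left out, the CDS share of pump peaks was 63.8% in reps 5-7 and 53.1% in reps 1-4.

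**Figure D4:**
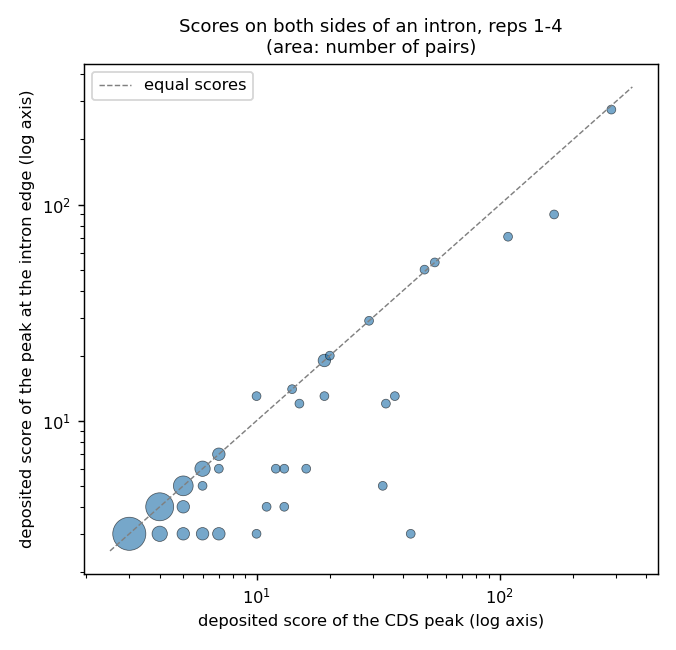
Deposited score of pump peaks that begin at the last base of an intron (y axis, log scale) against that of the CDS peak of the same small RNA at the other edge of the intron (x axis, log scale), for 70 pairs in reps 1-4; larger circles are several pairs with the same values. In 40 pairs the scores are equal (dashed line), and the pair at the top right is miR-124-3p on Atp2b3, with 275 and 287.

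Some peaks of related PMCA genes lay at the same place of exons of equal length. Between these genes, 52 pairs of peaks of 1 small RNA lay in exons of equal length, of which 23 overlapped in position within the exon and 29 did not. How many would overlap by position alone was not tested. A single exon held 8 of the 23 pairs, 7 of them of let-7 names with 1 seed. In this 197-base exon of Atp2b1 and Atp2b2, let-7a, b, c, d, f, g and i all had overlapping peaks in both genes between bases 51 and 77, and miR-9-5p scored 7 on Atp2b1 and 55 on Atp2b2 there. The sources used here do not state how reads that match related genes were assigned, so which of the related genes such a peak came from is uncertain.

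**Figure D5:**
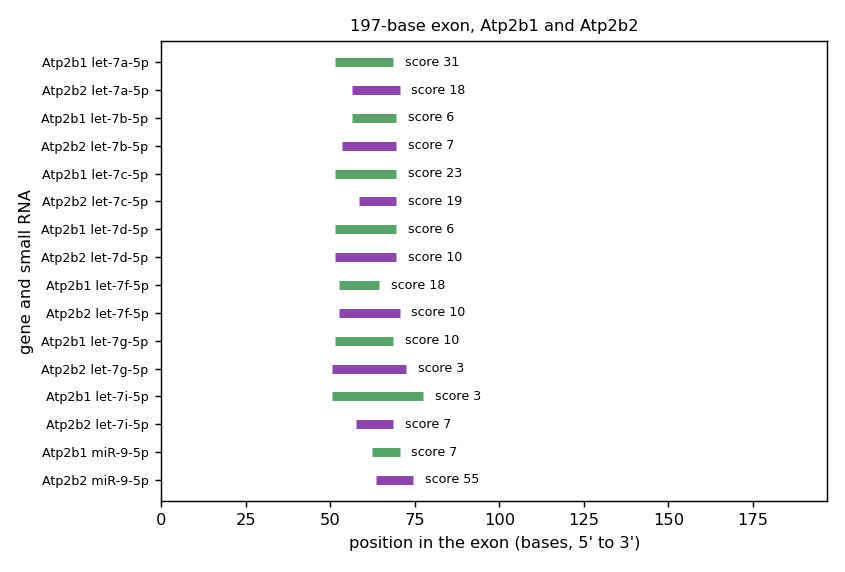
Position of peaks within a 197-base exon of Atp2b1 and Atp2b2 (x axis, bases from the exon's 5′ end) in reps 1-4, with 1 line per gene and small RNA (y axis) and its deposited score beside it. The lines of all 7 let-7 names lie above each other between bases 51 and 77 in both genes.

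Other genes of the same transport pathways also had peaks. Of 41 such genes (regulators of the sodium pump, calcium pump partners, sodium-calcium exchangers, store refilling, V-ATPase assembly and other pumps), 3 had peaks in excitatory neurons, 7 in reps 5-7 and 29 in reps 1-4, with 5, 13 and 1946 peaks. Those with a peak were 7.32% of the 41 in excitatory neurons and 17.1% in reps 5-7, against 4.06% and 12.9% of the 11356 genes with a peak in any list. These bases are unlike, since the 41 include genes with no peak in any list. On the base of the 11356, the 3 and the 7 are out of the 29 with a peak. The 3 genes in excitatory neurons were Slc8a2 (2) and Slc24a2 (2), both sodium-calcium exchangers, and Nptn (1), which encodes the PMCA partner neuroplastin. Of 20 tested, 0 were called between excitatory neurons and reps 1-4, with 0.268% of all genes called. Between reps 5-7 and reps 1-4, 1 of 20 was called, Nkain2, whose product interacts with the sodium pump beta subunit, with 0 peaks in reps 5-7 and 722 in reps 1-4, 717 of them intronic (Fisher's exact test, adjusted p = 0.00745), against 1.33% of all genes called. With CDS and UTR peaks alone Nkain2 had too few peaks to be tested, and 0 of 3127 genes were called.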

How the data were processed

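Chimeric Ago libraries of mouse forebrain were analysed from 4 deposited peak lists, each called on the pooled libraries of a group. Per the submitters' processing notes and the file headers of the calling summaries, the authors used mm10, miRBase mouse names, at least 3 reads and at least 2 libraries a peak; no source used here names the aligner or caller. The protocol in the labels states reads of 150 bases; depth by library is not given, so precision follows from peak numbers. Each peak's deposited score was made by the authors as a whole number of unstated definition; the other deposited values used are the text settings of the summaries.

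Here, peaks were counted per gene, region and small RNA as annotated, with Wilson intervals. Genes were tested with Fisher's exact test (SciPy 1.17.1, Python 3.11.15) over all genes with at least 10 peaks in the 2 lists added together. The procedure was also run on simulated lists of independent peaks. Those do not stand for stacked peaks, and the outcome is not given here. Recurrence asked for the same small RNA and 1 base of overlap. Coordinates are 1-based.

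Pump genes and partner genes were chosen with earlier results of these data known. Genes named are those with a peak in excitatory neurons or reps 5-7, those called, and in reps 1-4 the 10 with most CDS and UTR peaks and the 5 with most peaks, and the other isoforms of the sodium and calcium pump families. Junction and paralog exon counts were chosen after seeing the data. Alternatives were scores, merged sites, CDS and UTR peaks alone, rRNA left out, other overlaps and other minimum peak numbers. With pooled lists, p-values cover counting error only and treat stacked peaks as independent. The definition of the score is not stated, so it may count PCR copies. Some genes that meet these rules enter the counts but are not reported here by name.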

Additional observations from a re-analysis of the deposited data

How the results depend on the processing

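Of 42 alternative values, 25 gave the same number of called pump genes or a share inside the interval of the value reported. Another 15 were shares outside that interval, and 2 were higher numbers of called pump genes. Merging overlapping peaks into sites gave 1 pump gene called in excitatory neurons against reps 1-4 and 3 in reps 5-7 against reps 1-4, where unmerged peaks gave 0. Merging leaves fewer observations per gene, but mainly in reps 1-4. It took pump peaks from 22 to 21 in excitatory neurons, from 51 to 44 in reps 5-7 and from 1800 to 954 in reps 1-4. Other peaks of reps 1-4 went from 244380 to 182959. The pump share of peaks with scores summed was 1.34% in excitatory neurons, 0.874% in reps 5-7 and 0.835% in reps 1-4. With CDS and UTR peaks alone it was 1.97% in reps 5-7 and 1.39% in reps 1-4, and in reps 1-4 it was 0.519% with merged sites and 1.12% without intron peaks. The CDS share of pump peaks was 100% (13 of 13) in excitatory neurons at or above the median score. In reps 1-4 it was 45.4% with merged sites, 62.6% among CDS and UTR peaks and 53.1% without junction peaks. Recurrence in reps 1-4 was 77.3% of excitatory and 52.9% of reps 5-7 pump peaks with a reciprocal overlap of 50%, and 100% and 98.0% with any small RNA. The cause of these shifts was not tested. The alternatives without intron peaks and without junction peaks were chosen after seeing the data. With the larger list cut to equal size, no pump gene had enough peaks in either comparison of excitatory neurons, and at or above the median score none had in excitatory neurons against reps 5-7. The seed match of pump peaks was not run, as no genome of the build was used here. No paired analysis was possible because libraries were pooled before calling and the lists carry no replicate; for the same reason no replicate could be left out. The 766 peaks of the excitatory list limit every statement on single genes there.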
